A study of Homo sapiens with 6 samples.

Results

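The TTD peaks of chromosome 14 were the 1446 regions with this chromosome name among the 31569 regions of the deposited list of UHRF1-TTD binding sites in HepG2 cells. The chromosome was selected on a measured value, since it holds the widest peak of the list, 50780 bp, while the next widest, 47070 bp, lies on chromosome 8. Both widths are therefore given as a description only. The same holds for values that rest on the widest peak, such as the cover of the gene DHRS2, its promoter and its locus. The study used native mononucleosomes of untreated HepG2 cells, an established human hepatoblastoma line. Its 6 libraries, 2 biological replicates of each kind, were a pull-down with the GST-tagged tandem tudor domain (TTD) of human UHRF1, a ChIP with an H3K9me2 antibody, and input. In the pull-down, called CIDOP, the recombinant domain takes the place of the antibody. The authors averaged both TTD replicates before peak calling, so the list gives 1 position and 1 width for each peak, with no height, no replicate value and no error between replicates. The read depth behind a peak is unknown, and the H3K9me2 ChIP and input signals were not analysed here. HepG2 is a single transformed line, and no other cell type was analysed here.

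UHRF1 is the partner of DNMT1 in the maintenance of DNA methylation. Its TTD holds histone H3 tails that carry di- or trimethylated lysine 9, and the study asked how monomethylation of lysine 4 on the same tail bears on this contact. H3K9 methylation is known from silent chromatin, whereas H3K4 monomethylation marks enhancers and the flanks of promoters. Chromosome 14 is acrocentric, so its short arm is almost absent from the assembly, and its long arm carries several gene clusters of known tissue use. These are the SERPINA genes, some of them for protease inhibitors secreted by the liver, the imprinted DLK1-DIO3 region, the immunoglobulin heavy chain locus, the T cell receptor alpha and delta loci and groups of olfactory receptors.

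Sequences from inside 4 of the wide peaks are shown because these peaks mark the loci described below. Each is 121 bp of hg38 centred on a match to TGTTTAC, the core letters of forkhead factors such as the liver factor FOXA1. The match chosen is the closest to the peak midpoint whose 121 bp hold no base of an annotated exon. Capitals mark the match, and a match on the other strand reads GTAAACA.
Widest peak, over DHRS2, chr14:23613046-23613166, plus strand: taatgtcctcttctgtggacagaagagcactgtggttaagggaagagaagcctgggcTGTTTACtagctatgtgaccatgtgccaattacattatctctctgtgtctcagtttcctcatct
The third widest peak, downstream of BMP4, chr14:53846569-53846689, plus strand: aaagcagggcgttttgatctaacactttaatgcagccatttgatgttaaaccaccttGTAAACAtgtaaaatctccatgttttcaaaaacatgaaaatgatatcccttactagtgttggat
Ninth widest peak, in STXBP6, chr14:24980272-24980392, plus strand: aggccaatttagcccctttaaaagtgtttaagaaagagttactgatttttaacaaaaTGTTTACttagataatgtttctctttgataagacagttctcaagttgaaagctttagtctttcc
Widest peak over SERPINA11, chr14:94454005-94454125, plus strand: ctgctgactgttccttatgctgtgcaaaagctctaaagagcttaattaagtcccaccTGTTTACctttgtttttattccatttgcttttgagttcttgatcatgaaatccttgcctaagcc
A match describes the letters and was not taken as a bound site.

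Promoter sequences of 4 genes are shown because they contrast in CpG content and in whether a peak covered them. They are the 250 bases before a start in RefSeq (GRCh38.p14), which has 735 such entries for 517 of the 616 protein-coding genes of the chromosome. All are free of annotated exons, and capitals mark CpG dinucleotides.
DHRS2, chr14:23629865-23630114, plus strand: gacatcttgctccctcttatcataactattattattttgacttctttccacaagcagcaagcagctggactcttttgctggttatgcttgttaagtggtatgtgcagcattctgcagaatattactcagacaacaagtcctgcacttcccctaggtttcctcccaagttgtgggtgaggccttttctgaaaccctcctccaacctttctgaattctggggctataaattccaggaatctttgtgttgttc
SLC10A1, chr14:69797242-69797491, minus strand: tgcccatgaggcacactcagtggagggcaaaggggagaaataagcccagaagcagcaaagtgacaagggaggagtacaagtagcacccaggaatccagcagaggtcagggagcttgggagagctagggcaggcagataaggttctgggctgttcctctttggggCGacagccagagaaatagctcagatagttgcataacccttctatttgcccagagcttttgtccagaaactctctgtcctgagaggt
SERPINA11, chr14:94452801-94453050, minus strand: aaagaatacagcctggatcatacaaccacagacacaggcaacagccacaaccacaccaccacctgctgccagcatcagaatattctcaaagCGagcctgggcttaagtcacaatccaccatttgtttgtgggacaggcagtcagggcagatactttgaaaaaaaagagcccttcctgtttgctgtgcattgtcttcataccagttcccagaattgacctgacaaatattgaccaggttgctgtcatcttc
STXBP6, upstream start, chr14:25050148-25050397, minus strand: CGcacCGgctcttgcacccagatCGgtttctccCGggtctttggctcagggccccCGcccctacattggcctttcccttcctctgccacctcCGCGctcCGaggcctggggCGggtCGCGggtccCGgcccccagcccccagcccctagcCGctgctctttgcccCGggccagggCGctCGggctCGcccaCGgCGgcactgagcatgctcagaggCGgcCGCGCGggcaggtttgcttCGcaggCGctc
STXBP6, internal start, chr14:25032585-25032834, minus strand: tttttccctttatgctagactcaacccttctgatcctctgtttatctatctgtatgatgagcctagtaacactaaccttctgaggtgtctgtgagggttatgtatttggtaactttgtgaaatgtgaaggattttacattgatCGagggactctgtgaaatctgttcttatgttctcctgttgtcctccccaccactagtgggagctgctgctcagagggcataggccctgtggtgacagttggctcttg
The DHRS2 promoter contained 0 CpG, those of SLC10A1 and SERPINA11 1 each, and all 3 lay entirely in a peak. STXBP6 had both forms. Its upstream start had 25 CpG, a GC content of 73.6% and no base in a peak, whereas its internal start had 1 CpG, a GC content of 44.8% and lay entirely in a peak.

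Chromosome 14 carried 4.58% of all TTD peaks and 4.80% of all bases in peaks, on 3.08% of the genome sequence without N. This came to 13.5 peaks per Mb of chromosome length and to 16.0 per Mb of known sequence, against 10.1 and 10.6 per Mb on the other 23 chromosomes together. The peaks covered 4.49 Mb, which was 4.19% of the chromosome and 4.95% of its known sequence. The other chromosomes together were covered to 2.98% and 3.12%. By peaks per Mb of known sequence chromosome 14 ranked 5 of 24, after chromosomes 20, 2, 6 and 16. The spacing was also closer, with a median gap of 14860 bp between neighbouring peaks against 23265 bp elsewhere, and 589 of 1445 gaps, or 40.8%, were under 10 kb against 33.4%. With 1 pooled list none of these differences could be tested against replicates. Copy number was not measured here, and its part in these and the later comparisons between chromosomes was not tested. The 95% Wilson intervals given below cover counting error only, and neighbouring peaks are not independent.

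**Figure D1:**
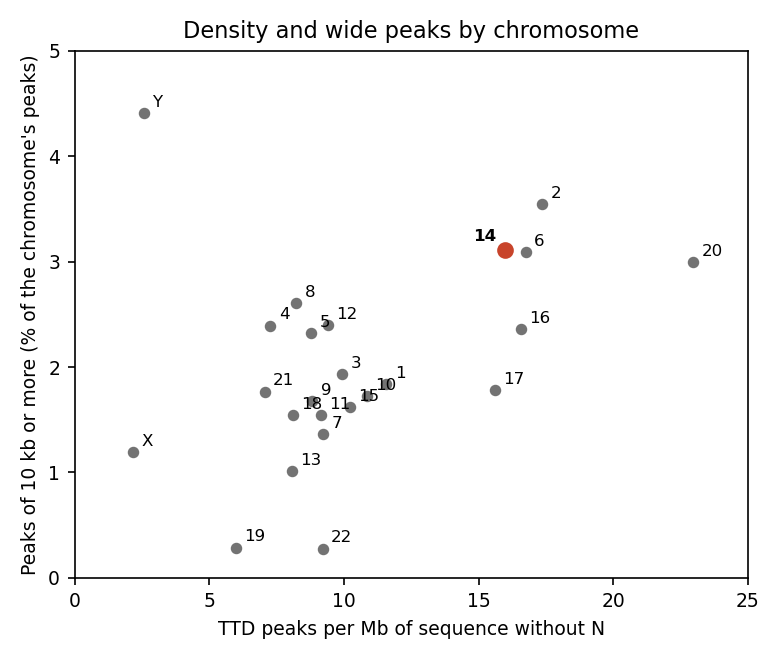
Each point is 1 chromosome, with TTD peaks per Mb of sequence without N on the x axis and the percent of its peaks that reach 10 kb on the y axis. Chromosome 14 (red) sits at 16.0 peaks per Mb and 3.11%, in the group of dense chromosomes with 2, 6, 16, 17 and 20.

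The widths of chromosome 14 peaks lay close to those elsewhere at the median and above them in the upper part. The median width was 2260 bp against 2250 bp on the other chromosomes. The lower quartile was 1340 bp against 1370 bp, while the upper quartile was 3860 bp against 3640 bp and the 90th percentile 6290 bp against 5730 bp. The narrowest peak measured 230 bp. Of the 1446 peaks, 45 reached 10 kb, or 3.11% (interval 2.33 to 4.14%), against 681 of 30123, or 2.26% (2.1 to 2.43%). These intervals overlap, and the share counts peaks of a chromosome chosen for 1 of them. In the rank of chromosomes by this share, chromosome 14 stood at 3, after Y and 2. The 45 wide peaks held 14.4% of the covered bases, and the 311 widest peaks, 21.5% of the total, held 50%.

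**Figure D2:**
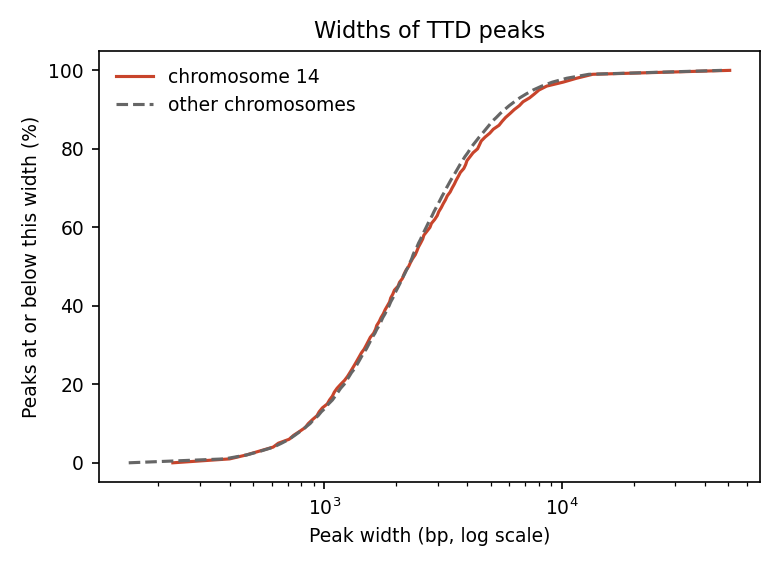
Cumulative percent of TTD peaks (y axis) at or below a width in bp (x axis, log scale) for chromosome 14 (red line) and for the other chromosomes (grey dashes). The lines meet at the medians of 2260 and 2250 bp and separate above them, with 90th percentiles of 6290 and 5730 bp.

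The profile in 1 Mb bins was uneven, with a dense stretch between 20 and 40 Mb and long empty stretches before and after it. The first 20 Mb held 2 peaks, which covered 0.112% of the known sequence there. Of 108 bins, 17 had no sequence and 86 were free of N. Over these 86 the median cover was 2.62%, with quartiles of 1.24% and 6.34%. In 14 bins the cover reached 10%, in 5 of them 20%. These 14 bins held 669 of the peak midpoints, or 46.3%, and 55.5% of the covered bases, and 10 of them lay between 20 and 40 Mb. That segment alone held 648 peaks, or 44.8%, at 32.4 peaks per Mb and a cover of 11.1%, and 26 of the 45 wide peaks. The segments of 40 to 60, 60 to 80 and 80 to 100 Mb were covered to 3.66%, 3.77% and 3.20%. From 100 Mb to the end of the chromosome, where GC content was 49.3%, the cover was 1.95% of the known sequence. Bins with high cover made up 16.3% of the full bins, rank 3 among the 24 chromosomes after 20 and 2.

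**Figure D3:**
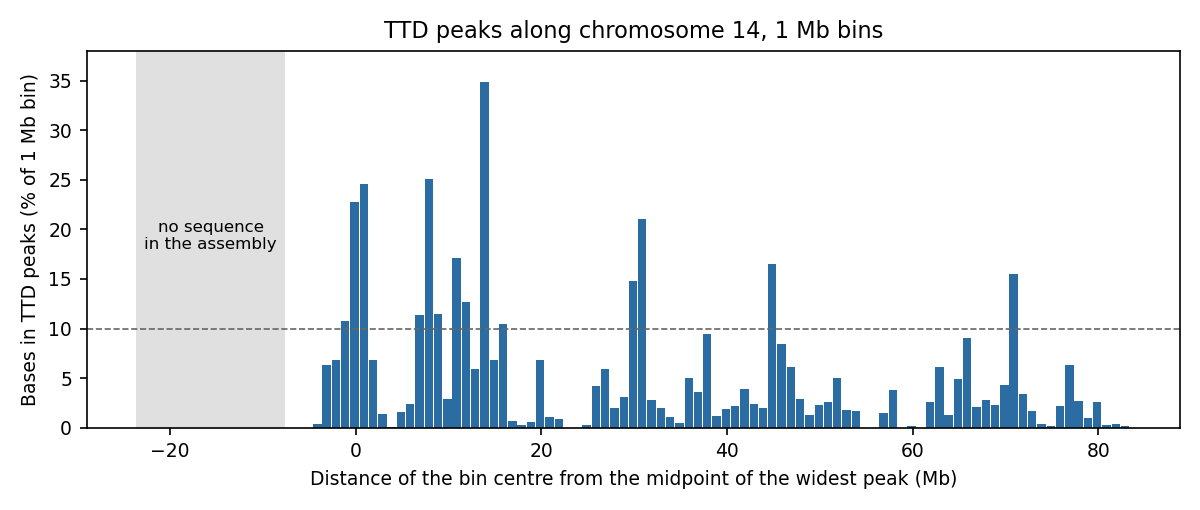
Percent of each 1 Mb bin in TTD peaks (bars) against the distance of the bin centre from the midpoint of the widest peak in Mb. The grey area has no sequence in the assembly and the dashed line stands at 10%, which 14 bins reached, with the highest bar at 34.9%.

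The densest bin, from 37000001 to 38000000, was covered to 34.9% by 73 peaks and holds 4 protein-coding TSSs. It contains MIPOL1, FOXA1 and parts of SLC25A21 and TTC6, and among the other 23 chromosomes only chromosome 2 had a higher maximum, 38.9%. The next bin by cover, from 31000001, was covered to 25.1%. It was followed by the bin from 24000001 with 24.5% and 65 peaks, which holds 43 protein-coding TSSs, the most of the dense bins, and by the bin from 23000001 with 22.8% and 29 TSSs. The bin from 54000001 with 21.0% was the fifth. The bin from 68000001, with RAD51B, ZFP36L1 and ACTN1, was covered to 16.5%, and the bin from 94000001 with the SERPINA cluster to 15.5%. Dense bins thus ranged from 2 to 43 TSSs, with a median of 6.5, while the other 72 full bins had 0 to 35 and a median of 5.0. Across the 86 bins Spearman's rho of cover was 0.42 with the number of protein-coding TSSs and 0.25 with GC content, and 0.53 between a bin and the next over 85 pairs. Bins share neighbours and base composition, so these are descriptions.

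Between neighbouring peaks, empty stretches were as long as 2997 kb. No peak was listed either from the first known base, 16000001, to the first peak at 19918051, a longer stretch that holds some N. It is not counted among the gaps between peaks. The 6 such gaps of 1 Mb or more added up to 11.8 Mb, or 13.0% of the known sequence. The longest, from 45793851 to 48791250, contains the whole of MDGA2, a synaptic adhesion gene, and RPL10L, a ribosomal protein gene used in the testis. The next, from 77759891 to 80277730, measured 2518 kb and contains NRXN3, a presynaptic adhesion gene of 1698 kb, and ADCK1. Those from 81986851 and from 83639271 measured 1651 and 1825 kb and hold no protein-coding gene. The gap from 97350861 measured 1497 kb and likewise holds none. The sixth, from 105547011 to 106846940 and 1300 kb long, covers nearly all of the immunoglobulin heavy chain locus, whose genes are used in B cells. Between the first and the last of the 175 immunoglobulin segments 1 peak was listed, and 0 segments were overlapped. The GC content of these gaps ran from 35.3% in the longest to 45.6% in the sixth. A gap says that no peak was called, and whether reads could be placed there equally well was not tested.

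Of the 10 widest peaks, 4 overlap no protein-coding gene. The widest, from 23589301 to 23640080, contains the TSS of DHRS2, a short-chain dehydrogenase/reductase gene, and 19.6% of it lay in that gene, the rest upstream and partly over a lncRNA gene. The second, 26770 bp wide, overlaps none. The third and the fifth, 23200 and 20280 bp, lie on either side of BMP4, the gene of a secreted growth factor, with midpoints 110 kb and 176 kb from its TSS. The fourth, from 86705071 to 86726250 and 21180 bp wide, overlaps no gene of any type, and the closest protein-coding TSS, that of FLRT2, is 1186 kb away. The sixth and the eighth, 19020 and 17620 bp, lie within MIPOL1, and the tenth, 15850 bp, within TTC6. The seventh, 18960 bp, lies within SUSD6, and the ninth, 16970 bp, within STXBP6, whose product binds SNARE proteins of vesicle fusion. Among all 45 peaks of 10 kb or more, 21 had their midpoint in a protein-coding gene, where 51.9% of all chromosome 14 peaks lay, and 25 lay 100 kb or more from a protein-coding TSS, where 32.0% of all peaks lay. A protein-coding TSS was contained in 3. The 3 TSSs inside were those of DHRS2, SERPINA11 and the unnamed gene ENSG00000258989, which overlaps PRKCH. In all, 32 of the 45 lay in bins covered to 10% or more, bins that the wide peaks themselves helped to define.

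Adjoining windows of 200 kb gave the densest loci. Of 444 full windows, 132, or 29.7%, had no peak and the median cover was 1.80%. The 10 most covered windows merged into 7 loci, which held 20.2% of the covered bases, and 6 of them are described here. The highest cover, 66.8%, was reached from 24800001 to 25000000 by 22 peaks with a median width of 5415 bp, and STXBP6 is the only protein-coding gene there. The 400 kb from 37400001 to 37800000 were covered to 54.9% by 41 peaks over MIPOL1, FOXA1 and TTC6. Around BMP4, from 53800001 to 54200000, 27 peaks covered 44.7%. From 23600001 to 24000000, over DHRS2, DHRS4 and part of DHRS4L2, 25 peaks covered 40.0%. The SERPINA locus from 94400001 to 94600000 was covered to 38.6% by 17 peaks. The locus from 31800001 to 32000000 was covered to 33.2% by 11 peaks. It holds the end of NUBPL, a gene for the assembly of mitochondrial complex I. The loci differed in makeup, since the SERPINA locus has 6 protein-coding genes and those of STXBP6, BMP4 and NUBPL 1 each.

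**Figure D4:**
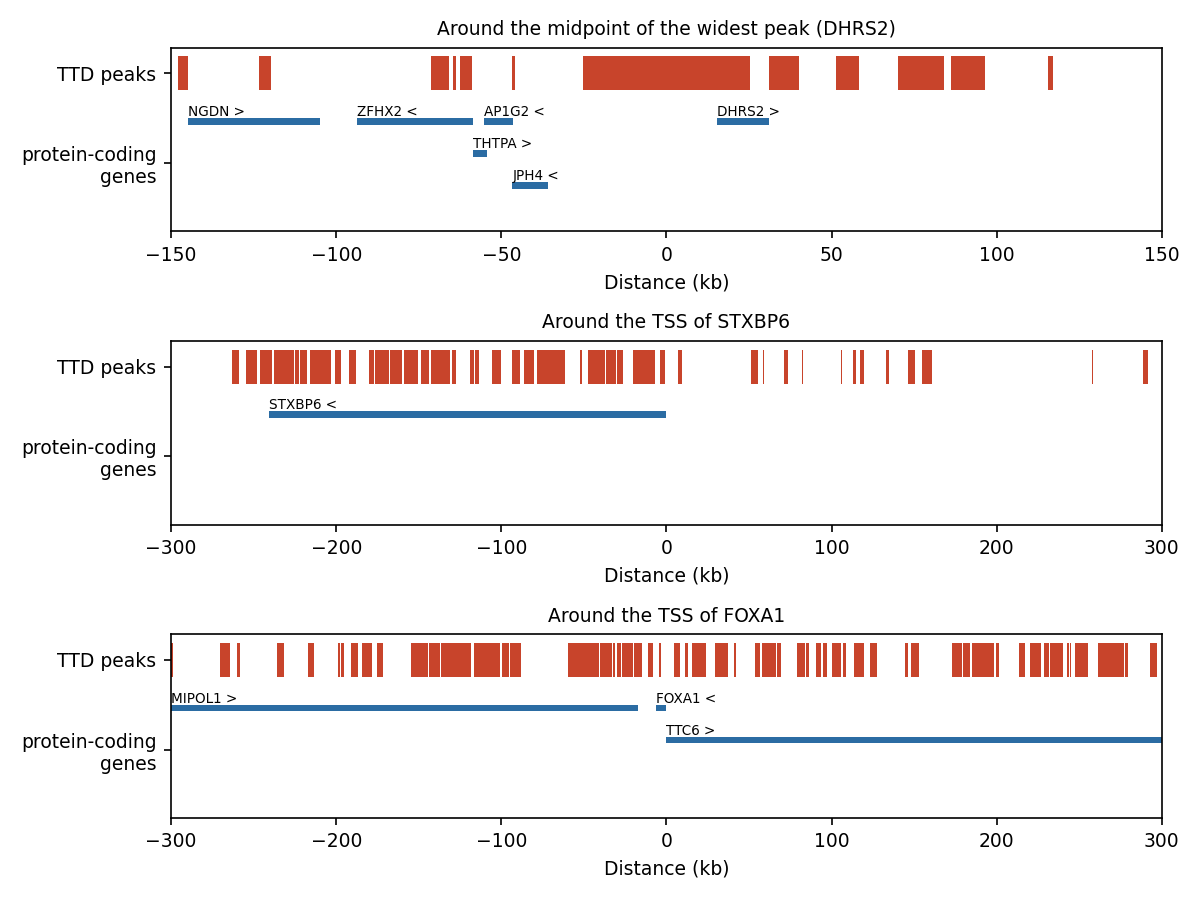
TTD peaks (red blocks) and protein-coding genes (blue bars, with > or < for the direction of transcription) against the distance in kb from the midpoint of the widest peak, from the TSS of STXBP6 and from the TSS of FOXA1. The 50780 bp block crosses the start of DHRS2, the peaks over STXBP6 fill 67.2% of the gene, and 22 peaks lie within 100 kb of FOXA1.

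By position relative to genes, most shares on chromosome 14 lay close to those elsewhere, and the share far from a TSS was higher. The midpoint lay in a protein-coding gene for 751 peaks, or 51.9%, against 51.0% elsewhere, while such genes make up 44.4% of the bases in both. Introns held 689 midpoints, or 47.6%, and exons 62, or 4.29% (3.36 to 5.46%), against 3.35% elsewhere, while exons make up 4.08% of the bases of chromosome 14 and 3.69% elsewhere. A further 243, or 16.8%, lay in lncRNA genes outside protein-coding genes, against 15.1% elsewhere. In no gene of any type lay 447, or 30.9%, against 32.7%. Within 1 kb of a protein-coding TSS lay 37 peaks, or 2.56%, against 2.75%, and from 1 to 10 kb 250, or 17.3%, against 16.6%. From 10 to 100 kb lay 696, or 48.1% (45.6 to 50.7%), against 51.9% (51.4 to 52.5%). At 100 kb or more lay 463, or 32.0% (29.7 to 34.5%), against 28.7% (28.2 to 29.2%). The intervals of the last 2 classes do not overlap between chromosome 14 and the rest. Peaks close to a TSS were narrow, with a median of 1160 bp within 1 kb and 2510 bp at 100 kb or more, and the medians elsewhere were 1160 and 2400 bp.

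Of the 616 protein-coding genes of chromosome 14, 280 had a peak in the gene body, which is 45.5% (41.6 to 49.4%), against 33.9% (33.2 to 34.5%) of the 19417 genes of the other chromosomes. In the 5 kb around the TSS, 163 had a peak, or 26.5% (23.1 to 30.1%), against 16.6% (16.1 to 17.1%). Neighbouring genes share peaks, so these intervals are too narrow, and the part of copy number was not tested. The median body cover was 0.0% and the mean 6.08%, and 14 genes were covered to 50% or more. Among genes of 10 kb or more, SERPINA11 came first with 82.6% of its body in 2 peaks, followed by STXBP6 with 67.2% in 26 peaks, DHRS2 with 64.2% in 1 peak and DHRS4L2 with 60.1% in 6. The DHRS2 value rests on the widest peak, for which the chromosome was selected. After the unnamed gene ENSG00000273259, at 55.9%, and SERPINA9, at 52.4%, came SPTSSA, which encodes a small subunit of serine palmitoyltransferase, at 48.1%. NDRG2, a differentiation-related gene, was covered to 45.2%, MIPOL1 to 41.8% and SERPINA3, the acute-phase inhibitor alpha-1-antichymotrypsin, to 41.5%. By number of peaks other genes came first, while MIPOL1 with 30 and STXBP6 with 26 ranked high by both measures. RAD51B, a homologous recombination gene of 910 kb, had 43 peaks at 15.6% cover, TTC6 36 at 36.0%, and EGLN3, whose product hydroxylates HIF, 35 at 24.1%. The annotated span of EGLN3 includes that of SPTSSA, so both count the same 4 peaks. Likewise, the span of ENSG00000273259 includes that of SERPINA3, so the peak in SERPINA3 counts for both. FOXN3, a forkhead repressor gene, had 23 peaks at 12.1% and NUBPL 22 at 22.6%.

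The SERPINA cluster, read against the 45.5% of chromosome 14 genes with a peak, had peaks in 10 of 12 annotated entries, 83.3%, and at the TSS of 10, also 83.3%, against 26.5%. The 12 entries are 11 names, since SERPINA13P has 2 entries that are not protein-coding, whereas the shares of all genes are over protein-coding genes, and the median body cover was 28.3%. From SERPINA10 to SERPINA13P, 94280460 to 94646994, 31 peaks covered 38.1%. SERPINA11 was covered to 100% in the 5 kb around its TSS, SERPINA9 to 89.4%, SERPINA10, the gene of the protein Z-dependent protease inhibitor, to 82.6%, and SERPINA3 to 81.6%. SERPINA4, the gene of kallistatin, was covered to 61.1% of its body and SERPINA5, the protein C inhibitor, to 39.4%. These 2 genes start at the same annotated base and share 88.8% cover there. The span of SERPINA5 includes that of SERPINA4, so the peak in SERPINA4 counts for both. SERPINA2 was covered to 48.2%, SERPINA12, the gene of vaspin, to 8.78%, and the SERPINA13P entries to 17.3% and 9.12%. No peak was listed in SERPINA1, which encodes alpha-1-antitrypsin, or in SERPINA6, which encodes the corticosteroid carrier, and their nearest peaks lay 4908 bp and 3422 bp from the TSS. The 2 genes without a peak thus sit among covered neighbours, with 18 and 14 peaks within 100 kb of their TSSs.

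Of 22 genes listed for liver metabolism and transport, 13, or 59.1%, had a peak in the body, against 45.5% of all chromosome 14 genes, and 7, or 31.8%, at the TSS, near the 26.5% of all genes, with a median body cover of 2.07%. SLC10A1, the sodium-dependent bile acid importer, had 3 peaks that covered 29.3% of its body and 80.6% of its TSS window. PCK2, the mitochondrial phosphoenolpyruvate carboxykinase, was covered to 22.6% and 59.8%, and PYGL, the liver glycogen phosphorylase, to 17.5% and 22.4%. Among the dehydrogenase/reductase genes DHRS4 was covered to 14.7%, below DHRS2 and DHRS4L2, and DHRS1 had no peak. RDH12, a retinol dehydrogenase gene, was covered to 13.1%, ANG and RNASE4, which share a promoter region and encode secreted ribonucleases, to 11.2% and 9.97%. Lower values were found for GCH1, the first enzyme of tetrahydrobiopterin synthesis, at 4.97%, for ARG2, the mitochondrial arginase, at 2.30%, for TC2N at 1.85% and for the deiodinase gene DIO2 at 0.873%. Of these, RDH12 is known from photoreceptors, DIO2 is not the main deiodinase of the liver, and no metabolic role is given here for TC2N, so the count of 13 goes past liver genes in the strict sense. No peak was listed in the acyl-CoA thioesterase genes ACOT1, ACOT2, ACOT4 and ACOT6 or in ALDH6A1, ABCD4, GSTZ1 and RDH11.

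Developmental transcription factor genes had peaks in 5 of 16, 31.3%, against 45.5% of all chromosome 14 genes, and at the TSS of 4, 25%, against 26.5%. ZFHX2 was covered to 28.1%, FOXA1 to 24.9%, the photoreceptor factor gene NRL to 20.4%, NPAS3 to 1.41% and the estrogen receptor gene ESR2 to 0.859%. The annotated span of NRL includes that of PCK2, so the 2 peaks of PCK2 count for both genes and in both lists. FOXA1, a pioneer factor of the liver lineage, had 1 peak in its body, none within 2.5 kb of its TSS and the nearest at 3099 bp, although 22 peaks lay within 100 kb. No peak was listed in the bodies of NKX2-1, NKX2-8, PAX9, OTX2, SIX4, SIX6, ESRRB and BCL11B, which act in brain, thyroid, eye and other lineages. In NKX2-8 a peak reached the TSS window, with 26.5% cover.

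In the imprinted DLK1-DIO3 region, from 100725705 to 101563452, 18 peaks covered 7.99% of 838 kb. MEG3, the maternally expressed lncRNA, had 9 peaks over 27.1% of its body, RTL1, expressed from the paternal copy, 1 peak over 6.51% and MEG8 1 peak over 1.08%. DLK1, MEG9 and DIO3 had none. The count in the body was thus 3 of 6, 50%, near the 45.5% of all chromosome 14 genes, and 0 of 6 had a peak at the TSS, against 26.5%, in a list too short to read a difference from. The region also holds 54 of the 98 miRNA genes of the chromosome, and 0 of the 54 were overlapped. The only miRNA gene with a peak was MIR6717, which lies within the span of NDRG2. The list does not tell the parental copies apart.

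A list of broadly used genes, mostly of proteasome, ribosome and translation but with the RNA-binding protein gene HNRNPC, the splicing factor gene SNW1 and the chaperone gene HSP90AA1, had peaks in 6 of 16, 37.5%, against 45.5% of all chromosome 14 genes, and at 6 TSSs, also 37.5%, against 26.5%. PSME1, a proteasome activator subunit gene of 2805 bp, was covered to 73.0%, its partner PSME2 to 9.27%, and PSMA6, a proteasome core subunit gene, to 3.50%. The other 3 genes with a peak were SNW1, HSP90AA1 and HNRNPC, covered to 4.01%, 1.41% and 1.22%. No peak was listed in the bodies of the proteasome genes PSMB5, PSMC6, PSMA3 and PSMC1, or of the ribosome and translation genes of the list. Olfactory receptor genes had a peak in 2 of 27, 7.41%, against 45.5% of all chromosome 14 genes, and at 2 TSSs, also 7.41%, against 26.5%. The genes with a peak in the body were OR4E1 and OR6J1. Of the 302 T cell receptor and immunoglobulin segments, 6, or 1.99%, were overlapped, and all 6 belonged to the 127 T cell receptor segments. They were TRDV1, TRAV33, TRDC, TRAJ22, TRAJ10 and TRAC. A peak lay within 2.5 kb of the start of 22 segments, or 7.28% of the 302, and these were likewise all T cell receptor segments. The shares over protein-coding genes were 45.5% and 26.5%. Between the first and the last T cell receptor segment 14 peaks were listed, against 1 across the immunoglobulin segments. Segments are short, with a median of 359.5 bp, and receptor genes have a median of 5841 bp against 27082 bp for all protein-coding genes of the chromosome, and the part of length in these counts was not tested.

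The longest genes ranged from no peak to more than 30 peaks. Of 17 protein-coding genes of 400 kb or more, 14, or 82.4%, had a peak, against 45.5% of all chromosome 14 genes, and 2, or 11.8%, had one at the TSS, against 26.5%. The list is chosen by length, with a median of 508387 bp against 27082 bp for all protein-coding genes of the chromosome, so its share with a peak in the body cannot be told apart from an effect of length. The median cover was 2.66%. TTC6, EGLN3, RAD51B and FOXN3 stood at 36.0%, 24.1%, 15.6% and 12.1%. MDGA2, NRXN3 and RGS6, a regulator of G protein signalling, measure 836, 1698 and 634 kb and had no peak. Between these ends were 10 genes with 0.306 to 5.68%, from SLC35F4 to SLC25A21.

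**Figure D5:**
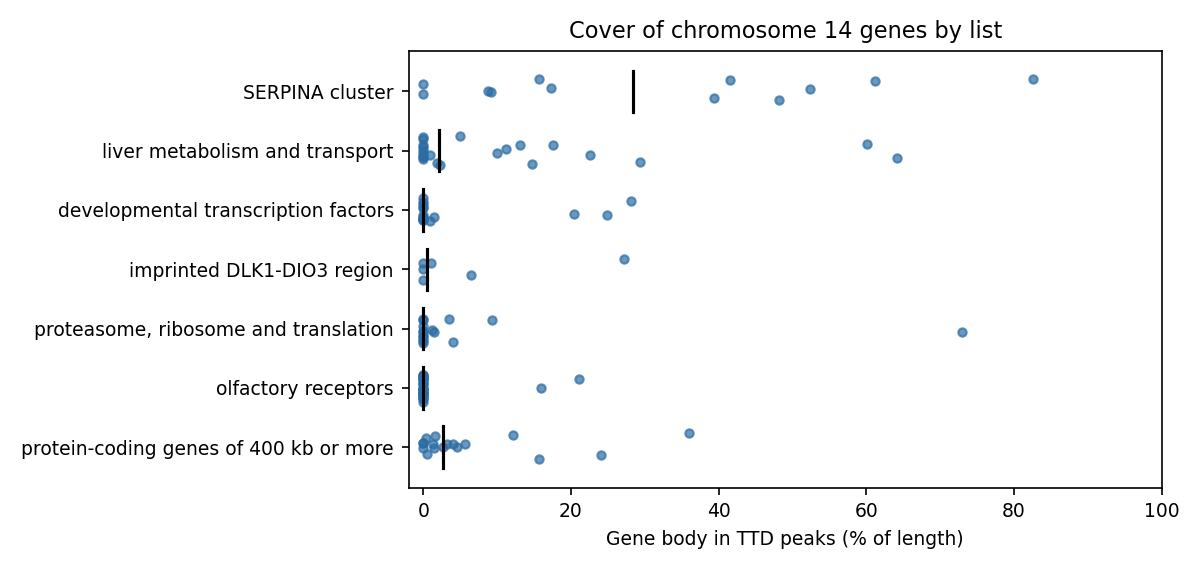
Percent of the gene body in TTD peaks (x axis) for the genes of 7 lists, 1 point for each gene with random vertical offset and a black line at the median. SERPINA genes range from 0 to 82.6% with a median of 28.3%, while the medians of the other lists lie between 0 and 2.66%.

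The bases in chromosome 14 peaks had a GC content of 42.5%, between the 40.8% of the chromosome and the 42.8% of peaks elsewhere. In 928 peaks, 64.2%, the GC content was above that of the 1 Mb bin around them, with a median difference of 1.69 percentage points. The ratio of observed to expected CpG was 0.207 in the peaks, 0.237 over the chromosome and 0.209 in peaks elsewhere. It was lower in wider peaks, from 0.230 in the 641 peaks narrower than 2 kb to 0.206 in the 760 of 2 to 10 kb and 0.179 in the 45 of 10 kb or more, and GC content was 44.2%, 42.5% and 40.8% in these classes. Promoters showed the same contrast as the printed examples, which were chosen for it. Of the 735 promoter entries 47 overlapped a peak, and these had a median of 6 CpG against 17 in the 688 without. In 4 groups by CpG number the share with a peak was 26 of 202, 12.9% (8.94 to 18.2%), with 0 to 6 CpG and 14 of 189, 7.41%, with 7 to 17. It was 5 of 170, 2.94%, with 18 to 25 and 2 of 174, 1.15% (0.316 to 4.09%), with 26 to 58. The intervals of the lowest and the highest group do not overlap. The 735 entries belong to 517 genes and neighbouring starts can share a peak, so these intervals are too narrow.

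The letters of 2 liver factors were counted in the central 300 bp of each peak, on both strands, as 7-letter cores that do not contain each other. TGTTTAC was present in 95 of 1446, 6.57% (5.40 to 7.97%), against 4.57% (4.49 to 4.64%) of all 301875 adjoining windows of this length on the chromosome and 4.54% of those without a base in a peak. CAAAGTC, the core letters of HNF4A, a nuclear receptor of hepatocytes, was present in 106, 7.33% (6.10 to 8.79%), against 4.46% (4.39 to 4.53%) and 4.36%. In the 15001 adjoining windows with at least 50% of their bases in a peak, the shares were 5.09% (4.75 to 5.45%) and 6.25% (5.87 to 6.64%), closer to those of all windows than the central windows were. The mean GC content was 43.4% in the central windows and 40.8% in all windows, and its part in the difference was not tested.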

How the data were processed

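Per the study's methods, with versions from the submitters' processing notes, Trimmomatic 0.38 trimmed the reads, HISAT2 2.2.1 aligned them to hg38, and the authors computed coverage in 10 bp bins with deepTools 3.3.2 and took the mean of the TTD replicates. That mean was passed to MACS2 2.1.1 in its broad mode, after which they removed blacklisted regions and curated the list by hand. The methods name no correction for copy number, and copy number was not measured here. Each deposited row gives a start, an end and a width in bp, without any peak score.

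From these, counts and cover (percent of bases in peaks) were computed with Python 3.11.15, numpy 2.4.6 and pandas 2.3.3 on hg38, with GENCODE release 44 and 1 TSS for each protein-coding gene. Interval arithmetic was checked on simulated data, and intervals are 95% Wilson intervals (scipy 1.17.1). No test was run, since the list has no replicates. The members, gene lists and motifs were chosen with earlier results of these data known. Named genes are genes of the lists, with or without a peak, those at the 10 widest peaks and densest loci, and the 10 of 10 kb or more with the largest body cover. Genes with the most peaks, the T cell receptor and olfactory receptor genes with a peak and the contents of dense bins and gaps were added after their values were seen. Repeat content, the signal tracks, H3K9me2 and input were not used here, and some genes of the lists and loci are not reported here.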

Additional observations from a re-analysis of the deposited data

How the results depend on the processing

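No paired analysis was possible because the replicates were pooled before peak calling and no result comes from a test, so leaving out a replicate was not possible either. Of 29 alternatives over 10 results, 10 stayed within the counting interval or within 1.5 times the count, and 19 moved. Peaks per Mb, cover, median width and GC content were called moved on any change of the rounded value, however small. With the peaks at or above the series median width only, there were 6.80 peaks per Mb, 3.3% cover, a median width of 3815 bp, 6.18% of peaks at 10 kb or more, 4.26% of midpoints within 2.5 kb of a TSS, 9 bins covered to 10%, 160 genes with a peak and a GC content of 42.1%. These follow from keeping wide peaks. Joining peaks less than 1 kb apart gave 12.5 peaks per Mb, a median of 2310 bp and 4.64% at 10 kb or more. Known sequence as the denominator gave 16.0 peaks per Mb and 4.95% cover. Genes of any type held 69.1% of midpoints. TSSs of all transcripts had 15.8% of midpoints within 2.5 kb, and any overlap with the window 10.9%. Requiring 10% of the body left 103 genes, and the TSS window 163. The median GC content of the central 300 bp was 43.3%. Without heights or depth in the list, weak and strong peaks cannot be told apart.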
